A study of Oryctolagus cuniculus with 18 samples.

Results

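The clones described here are cDNA clones whose hybridisation signal fell between the early morula and the expanded blastocyst of the rabbit (Oryctolagus cuniculus). They were selected on the deposited scores of the same 18 arrays that are described below. A clone entered the set where its mean score over the 6 morula arrays was at least 0.6 above its mean over the 6 blastocyst arrays, and less than 0.6 above its mean over the 6 4-cell arrays. Of 2052 clones, 97 (4.73%) met the rule. In 71 of them the morula and 4-cell scores lay within 0.6 of each other, and these are called steady until the morula. The name holds for the score alone. On log2 intensities normalised across arrays, the change of these 71 at that step ran from -0.92 to 0.85. In the other 26 the score had already fallen by 0.6 or more from the 4-cell stage to the morula, and these are called the clones that fell in both steps. All stage differences of these clones were fixed or bounded by the rule, so they are given as a description. Counts of clones past a threshold are printed beside the share over all clones. Exceptions are splits by neighbouring spots and recalculations with other processing or with pools left out. No share is given for these, and nothing is read from any of the counts.

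Embryos had developed in vivo and were collected from female rabbits as 4-cell embryos at 32 h post coitum, as early morulae at 58 h and as expanded blastocysts at 90 h or 96 h. Each stage had 3 pools. The 4-cell pools held 53 embryos of 3 females (pool 1), 52 embryos of 4 females (pool 2) and embryos of 2 females whose number was not given (pool 3). Morula pools 1, 2 and 3 held 34, 35 and 32 embryos, each of 2 females, and blastocyst pools 1, 2 and 3 held 16 embryos of 2 females, 37 of 4 and 60 of 7, with pool 1 taken at 96 h. The RNA of every pool was amplified once as antisense RNA (aRNA), made by in vitro transcription, and once by PCR, and each product was labelled with 33P and hybridised to its own array, giving 9 pools and 18 arrays. No strain was given for the animals used here. Median raw clone intensity ran from 28 to 386 per array.

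An early mammalian embryo starts on RNA that the mother stored in the oocyte. Much of this maternal RNA is degraded during cleavage, while transcription from the embryo's own genome takes over step by step; in the rabbit the main activation comes after the 4-cell stage. A transcript can therefore disappear because maternal copies are cleared, or because a gene that the embryo switched on is later switched off. By the expanded blastocyst the first cell types, trophoblast and inner cell mass, have formed. The files do not pair clones with genes, and 0 of the 2052 names occurred in the reference gene table, so clones are named by ID, none is given a function, no sequence is shown, and the stage labels could not be checked against marker genes. In pools of whole embryos a lower share of the cells that hold a transcript and less transcript per cell cannot be told apart.

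The score is the logarithm of a spot's intensity rescaled on each array, so a difference of 0.6 did not stand for the same fold everywhere. Every array had a score mean of 0 and an SD of 0.94. One score unit equalled 0.954 to 1.45 log2 units of raw intensity on 4-cell arrays (mean 1.18), 1.10 to 1.72 on morula arrays (mean 1.43) and 1.30 to 1.90 on blastocyst arrays (mean 1.67). Bright clones therefore lose score from stage to stage on this scale even where their log2 distance from the array mean is kept. With log2 raw intensity centred on each array's mean and not rescaled, all 97 clones still lay higher in morulae than in blastocysts, by 0.23 to 4.56 (median 1.06, log2). On that scale 74 of the 97 met a rule of the same form with bounds of 0.6 log2 units, as did 241 clones in all. A score of 0.6 stood for 0.57 to 1.14 log2 units across arrays, so on most arrays the log2 bound asked for a smaller fall. The count of 241 therefore reflects a changed bound as well as the missing rescaling. Most members that did not meet the log2 rule failed at the first step. There 20 of the 71 steady clones were 0.6 or more higher in morulae than in 4-cell embryos, while all 26 clones of the other class were lower.

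The 97 clones were part of a larger group, since 193 clones lost 0.6 or more from morula to blastocyst and the other 96 had first risen by 0.6 or more. A gain of that size at the same step was seen in 182 clones. The fall of the members ran from 0.60 to 3.27 with a median of 0.76. Many lay close to the bound: 39 members had a fall under 0.7, and 56 clones just missed the rule with a fall of 0.5 to 0.6. The 3 smallest falls inside were 0.602, 0.603 and 0.603, and the 3 largest outside were 0.597, 0.594 and 0.592. At the other bound, the members that had risen most from the 4-cell stage gained 0.562, 0.555 and 0.542, and the nearest clones outside gained 0.602, 0.613 and 0.642.

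**Figure D1:**
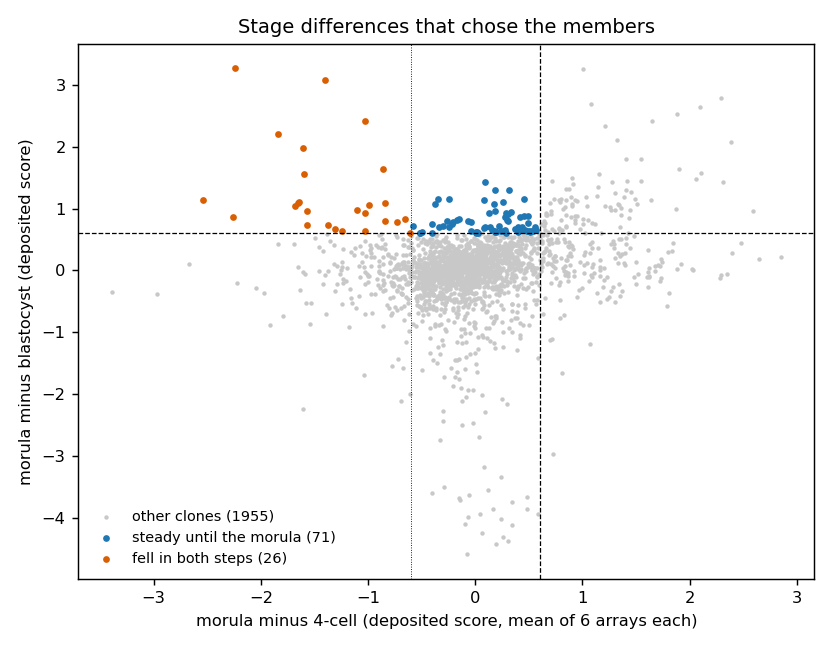
Morula minus blastocyst score (vertical) against morula minus 4-cell score (horizontal) for 2052 clones, each point a clone and each value a difference of means over 6 arrays; dashed lines mark the bounds of 0.6 and the dotted line -0.6. The 71 clones steady until the morula crowd just above the horizontal bound, while the 26 that fell in both steps reach 3.27.

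The classes differed in brightness as well as in shape, and both were taken from the scores that the rule used. A clone that fell in both steps had to score higher in 4-cell embryos than in blastocysts by both bounds together. The levels and ranks are therefore a description. Clones that fell in both steps were among the brightest of the 4-cell arrays, with a median score of 3.44 and a median rank at the 98.8th percentile of all clones. Their median score was 1.70 in morulae (93.2nd percentile) and 0.43 in blastocysts (77.8th percentile). Clones steady until the morula had median scores of 0.25, 0.42 and -0.29, at the 75.9th, 77.6th and 49.9th percentiles, so that in blastocysts their median lay at that of all clones. Per array, the median score of the steady clones was 0.05 to 0.48 on 4-cell arrays, 0.32 to 0.86 on morula arrays and -0.46 to -0.12 on blastocyst arrays. The same medians over the other class were 2.94 to 3.60, 1.62 to 2.09 and 0.18 to 0.50. Morula and blastocyst arrays did not overlap in either class, and 4-cell and morula arrays did so only in the steady class, a pattern the rule shaped.

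Brightness was also set against the spots with the name prefix XWAB, whose role the sources used here do not state. A clone above the 95th percentile of these spots on an array is called above the XWAB level. At the 4-cell stage 20 of the 26 clones that fell in both steps were above it on all 6 arrays and each of the 26 on at least 1 array. Of the 93 clones in the series above it on all 6 4-cell arrays, 34.4% were members, a share the rule also shaped. Among the 71 steady clones 12 were above the level on all 6 4-cell arrays and 34 on none. Over all clones 4.53% were above it on all 6 4-cell arrays and 73.0% on none. In morulae 31 of the 97 members were above it on all 6 arrays (32.0%, against 8.33% of all clones). On none were 20 (20.6%, against 64.6%). In blastocysts 67 of 97 were above it on none (69.1%), a smaller share than the 76.4% of all clones. Still above it on all 6 were 13 (13.4%, against 8.38% of all clones), so for those 13 the signal was lower and not lost.

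On normalised log2 intensities, which make the arrays of all stages share a distribution, all 97 clones were again lower in blastocysts than in morulae. The change ran from -4.62 to -0.63 with a median of -0.91, against a median of -0.07 over all 2052 clones. It was -1 or below in 41 members and -2 or below in 8. The median change was -0.85 in clones steady until the morula and -1.28 in those that fell in both steps. Fitted with limma over all clones, 68 of the 97 passed an adjusted p of 0.05 as a fall, where 8.04% of all clones did; the rule used this contrast, so the count carries no support of its own. The 3 morula pools all lay above the 3 blastocyst pools in 94 of 97 members and in 21.8% of all clones, a share the rule also shaped. The number that passed was 39 without blastocyst pool 1, 40 without pool 2, 41 without pool 3 and 39 without morula pool 1.

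Median centring of the arrays in place of the shared distribution left 16 members past the threshold at this step. All 97 were still lower in blastocysts, by a median change of -0.91. The share of all clones past the threshold under median centring is not given, so whether other clones lost calls alike cannot be told. The array titles carry a code of 4, 5 or 6, and each code holds 1 pool of every stage. Within code 4 the median change of the members from morula to blastocyst was -1.16, within code 5 it was -0.88 and within code 6 it was -1.03. All 97 clones fell within each code, but the pools of every code entered the rule, so this is no separate check. Leaving out the pools of code 5 left 31 members past the threshold and leaving out those of code 6 left 30.

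From the 4-cell stage to the morula the classes parted as the rule defines. The median change was 0.24 in the 71 steady clones, with a range of -0.92 to 0.85, and -1.31 in the 26 others, with a range of -3.15 to -0.51. Of all 97, 23 passed limma's test as a fall and 3 as a rise, where 9.55% and 11.7% of all clones did. The falls were 22 clones of the class that fell in both steps and 1 steady clone. Under median centring 1 member passed in either direction. The median change of all 97 was then 0.34 (all clones -0.09), and 32 were below 0. With the shared distribution it was 0.03 (all clones -0.05), and 47 were below 0. Without the pools of array code 5, 15 members passed, all as falls.

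Over the whole interval from the 4-cell embryo to the blastocyst the median change was -0.76 in the steady class and -2.57 in the class that fell in both steps. In the steady class the change ran from -1.92 to -0.05, and in the other from -5.70 to -1.54. The smallest change was in lcap0018c06, -0.05 ± 0.21 (SE), after a change of 0.67 ± 0.21 (SE) from 4-cell to morula. The signal of this clone thus peaked in morulae on this scale. As falls, 62 of 97 passed, against 14.2% of all clones, and 18 did so under median centring. The 62 were all 26 clones of the class that fell in both steps and 36 steady clones. The rule bounds this change too, so these counts carry no support either. Of the 42 clones in the series whose normalised signal was at least 4-fold lower in blastocysts than in 4-cell embryos, 24 were members, all from the class that fell in both steps. In 13 of those 26 clones the first step was the larger on this scale and in the other 13 the second. Some of these steps differed by far less than their SE, as in lcao0049e05 (-1.2466 and -1.2472, SE 0.22). The larger step also depended on the scale. In lcao0049g04 the log2 changes were -0.51 and -1.88, while morula minus 4-cell was -1.68 and morula minus blastocyst 1.04 in score. No time of loss is read from the split.

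**Figure D2:**
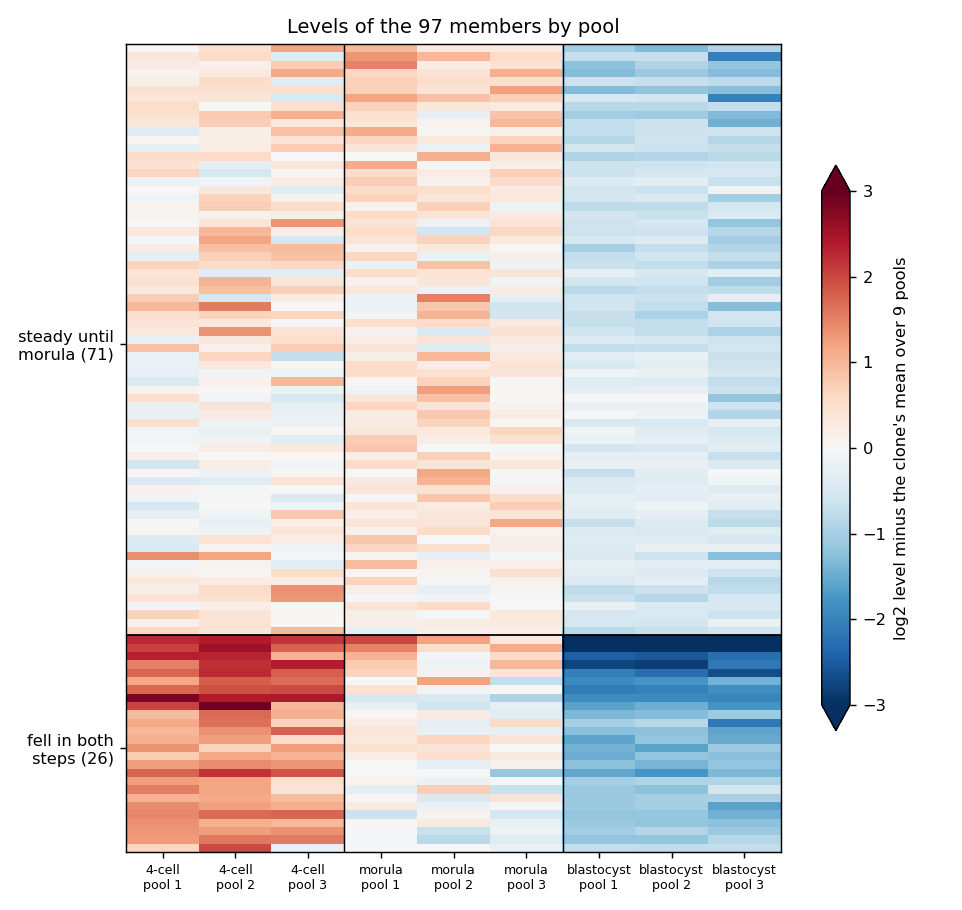
Normalised log2 level of each of the 97 clones (rows) in the 9 pools (columns), minus the clone's mean over the pools; red is above and blue below that mean, and the colour scale ends at 3 in either direction. In the 71 upper rows 4-cell and morula pools are mixed pale red and blue and the 3 blastocyst pools are pale to mid blue, whereas the 26 lower rows step down from red to near white to blue.

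Among the clones steady until the morula, lcap0013e07 had the largest score fall, 1.42. Its pool levels (normalised log2, mean of both arrays) were 7.90, 8.36 and 9.06 in 4-cell pools 1, 2 and 3, then 8.87, 8.18 and 8.16 in morulae, and 6.85, 6.56 and 6.97 in blastocysts. All blastocyst pools lay below all earlier ones, while 4-cell and morula pools overlapped. The blastocyst signal was not above the XWAB level on any of 6 arrays. With that level taken as a floor, the fall is given as at least 1.10-fold. The fitted change was -1.61 ± 0.30 (SE). The spot lies beside another member that was 6.19 times as bright, and the part this neighbour has in the value was not tested.

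The second, lcap0012f03, was bright throughout and above the XWAB level on all 18 arrays. It measured 11.57, 11.83 and 10.85 in 4-cell pools, 12.55, 12.24 and 11.83 in morula pools, and 10.54, 10.53 and 9.17 in blastocyst pools. Blastocyst pool 3 stood apart from the other two, and all 3 lay below every morula pool. The blastocyst level was 4.37-fold lower than the morula level (change -2.13 ± 0.38 SE). On this scale its morula level was 0.79 ± 0.38 (SE) above its 4-cell level, whereas the score difference was only 0.19.

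Of the clones that fell in both steps, lcap0011e04 had the largest score fall in the whole series, 3.27 from morula to blastocyst after the score fell by 2.24 from 4-cell to morula. Its levels were 13.22, 13.33 and 13.10 in 4-cell pools and 12.96, 12.17 and 11.28 in morula pools. In blastocyst pools they were 7.42, 7.43 and 7.69. The morula pools spread the most, with an SD of 0.84, against 0.12 in 4-cell and 0.16 in blastocyst pools. On the aRNA array of 4-cell pool 2 the raw intensity was 27223, and on the aRNA array of blastocyst pool 2 it was 401. Signal was above the XWAB level on all 12 arrays of the earlier stages and on 0 of 6 blastocyst arrays. With that level taken as a floor, blastocyst levels were at least 14.6-fold lower than morula levels.

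The next, lcap0002b10, measured 12.24, 12.73 and 11.94 in 4-cell pools, 11.67, 10.70 and 11.29 in morula pools, and 7.02, 6.96 and 7.07 in blastocyst pools. None of the stages overlapped. The step to the morula was 2.12-fold down (change -1.08 ± 0.27 SE). Again no blastocyst array was above the XWAB level, and with that level as a floor the step to the blastocyst was at least 7.75-fold down. In both clones the second step was the larger one. The blastocyst pools of lcap0002b10 had an SD of 0.06, against 0.40 in 4-cell and 0.48 in morula pools.

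**Figure D3:**
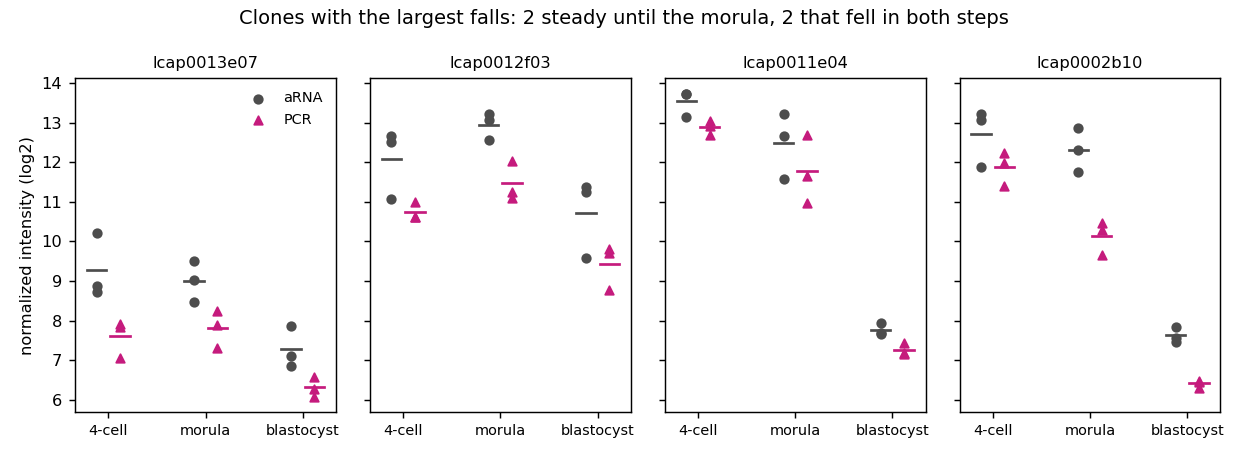
Normalised log2 intensity by stage for the 4 clones just described, with circles for aRNA arrays, triangles for PCR arrays (3 pools each) and bars for their means. The left pair is level or higher at the morula stage and then drops, and the right pair drops at both steps, ending below 8 on every blastocyst array.

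The members varied more between 4-cell pools and between morula pools than between blastocyst pools, and so did all clones. The median SD of a member among the 3 pools of a stage was 0.34 among 4-cell pools, 0.31 among morula pools and 0.16 among blastocyst pools (log2), against 0.31, 0.23 and 0.18 over all clones. Membership itself depended on single pools: 46 of the 97 clones met the rule whichever of the 9 pools was left out. Between 73 (without morula pool 2) and 96 (without 4-cell pool 3) remained when 1 pool was dropped, and 91 remained without 4-cell pool 2. Among the steady clones the lowest blastocyst level was in pool 3 in 39 of 71 (54.9%), where 41.6% of all clones had their lowest level in that pool. Among the clones that fell in both steps the share was lower than over all clones. Pool 3 also entered the blastocyst mean that the rule used, so these shares are a description. The arrays of this pool had the lowest median raw intensities of their stage, 36 and 28, and the part this has in the pattern was not tested.

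Blastocyst pool 1 was collected at 96 h and the other blastocyst pools at 90 h, a difference the rule did not use. With 1 pool against 2, values are given and no test was run. The median difference of the 97 members, 96 h pool minus the mean of the 90 h pools, was 0.02 log2 (all clones -0.01), and it was 0.05 in the steady class and -0.05 in the class that fell in both steps. The 96 h pool was the lowest of the blastocyst pools in 27 members (27.8%, as over all clones) and the highest in 26 (26.8%, against 25.6% of all clones). The sign of the median was positive on aRNA arrays (0.08) and negative on PCR arrays (-0.06). The 90 h pools differed from each other by a median of -0.09 (pool 3 minus pool 2), more than the 96 h pool differed from their mean on this scale; under median centring the 96 h difference was 0.17, with the 96 h pool the higher.

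The fall was present on the arrays of both amplifications. Morula scores exceeded blastocyst scores in all 97 clones on aRNA arrays alone, by 0.22 to 3.46 (median 0.82), and in all 97 on PCR arrays alone, by 0.23 to 3.07 (median 0.80). Across the 97 clones the fall on the one kind of array correlated with that on the other at r = 0.71, as a description, since both were made from the same pools and both entered the rule. Applied to aRNA arrays alone the rule kept 73 members and to PCR arrays alone 68. Both kept 51, and neither kept 7.

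Whether the size of the fall depended on the amplification could be tested, because the rule averaged over both. By limma on the differences within pools, 0 of the 97 clones had a change from morula to blastocyst that differed between PCR and aRNA arrays, and 0% of all 2052 clones did. The lowest adjusted p among members was 0.879, and 4 members had an unadjusted p under 0.05. The difference, PCR minus aRNA, ran from -1.74 to 1.20 with a median of 0.13, and a median SE of 0.44 limits what could be detected. It was above 0, meaning a smaller fall on PCR arrays, in 57 of 97 members (58.8%, against 49.8% of all clones). With array weights 3 members passed, all with a smaller fall on PCR arrays.

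The level of a clone, as opposed to its fall, often differed between the amplifications. Averaged over stages, 34 of the 97 members (35.1%) differed between PCR and aRNA arrays of the same pools by limma, where 19.2% of all clones did. On PCR arrays 24 were lower (24.7%, against 9.94% of all clones) and 10 higher (10.3%, against 9.26%). Of the 34, 13 had the same sign in 9 of 9 pools. Over all members the difference ran from -2.11 to 1.10 with a median of -0.17 log2, and over all clones the median was -0.01. Without the pools of array code 5 the count was 12 (5 higher, 7 lower), and without those of code 6 it was 17 (4 higher, 13 lower). With quantile normalisation inside each amplification, which shifts the median of all clones to -0.50, 66 members differed, 1 higher and 65 lower.

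Members were brighter than most clones, and bright clones were called more often. The median member level over all 18 arrays was 7.95 log2, at the 81.5th percentile. The rule used the same arrays, so this level is a description. Of the 379 clones at or above it, 23.7% were lower and 24.5% higher on PCR arrays. Among the 49 members at or above it, 17 were lower (34.7%) and 6 higher (12.2%). Among the 48 dimmer members 7 were lower (14.6%) and 4 higher (8.33%), against 6.81% and 5.80% of the 1673 clones below that level. Over all clones the direction differed by the prefix of the name, while members of both prefixes were more often lower than higher on PCR arrays. Of the 65 members named lcap, 19 were lower and 7 higher, against 122 and 74 of all 1017 lcap clones. Of the 32 members named lcao, 5 were lower and 3 higher, against 81 and 110 of all lcao clones. The part of level and of prefix in these counts was not tested.

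Of the members that passed, lcap0014b11 and lcap0022b05 differed most toward PCR (a larger difference than the latter's, 1.02 ± 0.34 SE in lcap0008b06, did not pass, with a limma adjusted p of 0.0517). In lcap0014b11 PCR exceeded aRNA by 0.95 to 1.47 in 4-cell pools, 0.85 to 0.99 in morula pools and 0.73 to 1.76 in blastocyst pools. The sign was the same in 9 of 9 pools, with a mean of 1.10 ± 0.15 (SE, limma adjusted p = 0.000323); 8 of 9 PCR arrays but only 2 of 9 aRNA arrays were above the XWAB level. In lcap0022b05 the difference was 1.00 ± 0.21 (SE, limma adjusted p = 0.00553), ran from 0.18 in 4-cell pool 2 to 2.42 in blastocyst pool 3, and was positive in 9 of 9 pools. This clone was above the XWAB level on 9 PCR and 4 aRNA arrays.

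Toward aRNA the extremes were lcao0044f06 and lcap0009e11. The first, above the XWAB level on all 18 arrays, was lower on PCR arrays in 9 of 9 pools, with a difference of -0.57 in 4-cell pool 2 at the one end and -3.77 in blastocyst pool 1 at the other, and a mean of -2.11 ± 0.23 (SE, 4.33-fold, limma adjusted p = 8.64e-05). Its morula and blastocyst pools did not overlap: the means of both arrays were 12.64, 13.16 and 12.20 in 4-cell pools, 11.72, 11.20 and 12.07 in morula pools, and 10.49, 10.68 and 9.35 in blastocyst pools. For lcap0009e11 the difference was -1.61 ± 0.21 (SE, limma adjusted p = 0.000282). It was below 0 in 9 of 9 pools, with 7 of 9 aRNA arrays and 1 of 9 PCR arrays above the XWAB level.

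**Figure D4:**
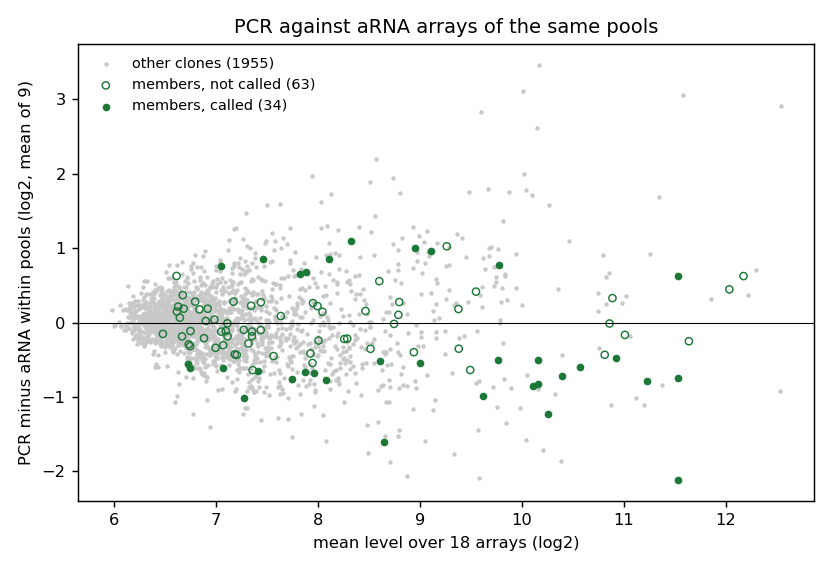
Difference between PCR and aRNA arrays of the same pool (log2, mean of 9 pools, vertical) against the mean level over 18 arrays (log2, horizontal), with grey points for the other clones, open circles for members that did not pass the test and filled circles for the 34 that did. The 24 filled circles below 0 outnumber the 10 above it.

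The names of the clones were not used by the rule. The prefix lcap was carried by 65 of the 97 members (67.0%) and by 49.6% of all clones, and lcao by 32 (33.0%) and 49.6%. Among steady clones 50 of 71 were lcap (70.4%), and among those that fell in both steps 15 of 26 (57.7%). None of the 15 lcal and 3 lcaq clones was a member. The median fall of the members was about the same for both prefixes, -0.91 for lcap and -0.90 for lcao, while over all clones it was -0.18 and 0.04. Members carried 41 of the 57 name stems of prefix and 4 digits. The stems lcap0019 (6 of 45 clones, 13.3%) and lcap0013 (6 of 46, 13.0%) held the most. The sources used here do not say what prefixes and stems stand for.

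Position on the filter moved with membership. The 97 spots lay in all 16 blocks but unevenly, with 16 in block 1, 12 in block 6, 11 in block 4 and 2 in each of 4 blocks. A member was adjacent to another member in 52 cases (53.6%), whereas 25.3% of all clones touched a member. A neighbouring spot with a mean raw intensity 4 or more times the clone's own was found for 37 of 97 members (38.1%) and for 64.5% of all clones. For 33 of these 37 the brightest neighbour also lost score from morula to blastocyst, as it did for 633 of the 1190 clones in the series whose such neighbour was a clone. For 17 of the 37 it was itself a member, 6.19 to 51.8 times as bright (median 15.0), as it was for 150 of those 1190. These 17 comprised 13 steady clones and 4 that fell in both steps, and they lay beside 8 brighter members.

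The densest cluster surrounded lcap0011e04, the clone with the largest fall. Of the 8 spots around it 6 were members, 8.54 to 51.8 times dimmer, with score falls of 0.76 to 1.63. This cluster was singled out after its values had been seen. Whether signal of lcap0011e04 reached these spots was not tested. The 17 members beside a brighter member had a median change of -0.90 and the other 80 of -0.91 (log2), and 11 and 57 of them passed limma's test from morula to blastocyst. The median change was -0.78 in the 37 members with a neighbour at least 4 times as bright and -1.11 in the 60 without one. Of these 60, 48 passed when only clones without such a neighbour were fitted. The rule used this step and these counts stand without a share over all clones, so nothing is read from them.

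**Figure D5:**
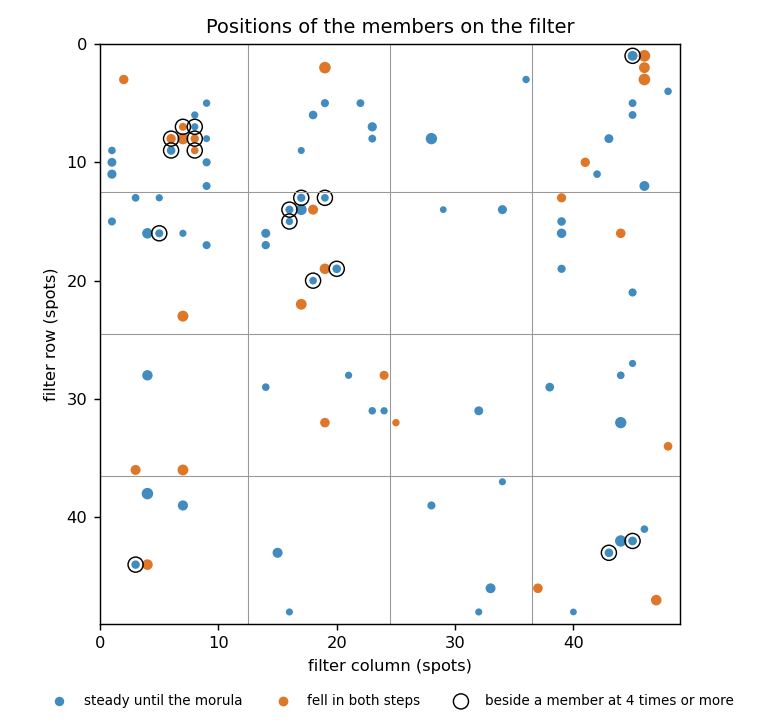
Positions of the 97 members on the filter, by spot row and column, with grey lines between the 16 blocks, point size rising with mean raw intensity, and black rings on the 17 members that touch a member at least 4 times as bright. A ring of 6 surrounds lcap0011e04 in the upper left block, and smaller groups lie in other blocks.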

How the data were processed

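Members and lists were chosen with earlier results of these data known. Deposited spot intensities are linear, read by the authors in AGScan with a constant spot diameter and without a background column, per the file headers; the deposited quality column was not used in tests. The score comes from the deposited table of the whole series (0 columns of other samples), and the sources used here do not say how it was made; spots of the same name were averaged. The 2304 spots held 2087 clone spots with 2052 names.

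Deposited intensities were background corrected by normexp in limma with an offset of 50, log2 transformed and quantile normalised within each amplification, so changes are relative to the other clones. Means of both arrays of a pool were fitted with lmFit and eBayes over all 9 pools; p-values were adjusted by the Benjamini-Hochberg method over 2052 clones (threshold 0.05). For PCR against aRNA, 18 arrays were normalised together and within-pool differences fitted. Bounds on folds put each array's lowest level above the XWAB percentile in place of lower values. This floor is an assumption, because the role of the XWAB spots is not stated. No gene table matched, so named clones were, per comparison, the 2 most extreme; gene lists were not run. The code was tested on simulated data. No pair of arrays was identical. The number of arrays limits the precision. Versions were R 4.3.3, limma 3.58.1, pandas 2.3.3 and matplotlib 3.10.9.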

Additional observations from a re-analysis of the deposited data

How the results depend on the processing

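Of 138 recalculated values, 116 stayed within 1.5 times the reported count or, for the 96 h pool, within the SD of the 90 h pools (0.06), and 22 moved; causes were not tested. Alternatives by neighbouring spots, XWAB level and unscaled log2 intensity were chosen after seeing the data. Counts of members called are given below without the share over all clones. The rule chose 97 clones; it chose 96 to 118 with 1 pool left out, 241 on unscaled log2 intensities and 60 among clones without a brighter neighbour. Median centring left 16 members called for blastocyst versus morula, 1 for morula versus 4-cell and 18 for blastocyst versus 4-cell, and moved the 96 h difference to 0.17. Without the pools of array code 5 the counts were 31, 15 and, for PCR versus aRNA, 12; without those of code 6 they were 30 for blastocyst versus morula and 17 for PCR versus aRNA. PCR arrays alone gave 34 for blastocyst versus morula and aRNA arrays alone 16 for morula versus 4-cell. Leaving out single pools gave 39 to 75, 18 to 27, 55 to 66 and 23 to 34 in these 4 comparisons. Quantile normalisation within each amplification gave 66 for PCR versus aRNA, and among the 13 members above the XWAB level on all arrays 8 were called. Array weights gave 3 members whose fall differed between amplifications. The 96 h difference was 0.0845 on aRNA and -0.0566 on PCR arrays.

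Pool numbers did not pair the pools (correlations of deviations -0.20 to 0.20, 3 of 9 over 0.1; only 2 of 9 pools had their best correlation at their own number). With the replicate block 62, 29 and 63 members were called in the 3 stage comparisons, against 68, 26 and 62. The arrays of a pool share an extract, so PCR versus aRNA was paired; with no replicate block it gave 27 against 34.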
